A study of Mus musculus with 3 samples.

Results

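The 10 genes described here encode the core of the NuRD and CtBP corepressor systems, which FOG proteins are known to recruit: Chd4, Mta1, Mta2, Mta3, Hdac1, Hdac2, Gatad2a, Gatad2b, Ctbp1 and Ctbp2. They were chosen by name, and a FOG2 peak was given to a gene when the gene was the nearest protein-coding gene body to the peak's summit, the point of highest signal, within 100 kb. By this rule 5 of 6166 FOG2 summits fell to these genes, and 3 of the 10 genes had at least 1 summit, among 21631 protein-coding genes in all. The tissue was the heart ventricle of E12.5 mouse embryos (the number is days of gestation), and the series had 2 FOG2 pulldown libraries and 1 input library. Both kinds of library came from Fog2flbio/flbio;Rosa26BirA/BirA embryos, in which FOG2 carries a biotin acceptor tag and the ligase BirA is made from the Rosa26 locus. The pulldown libraries were recovered on streptavidin beads with antibody labelled FOG2, the input had antibody labelled none, and the genotype label of all 3 read WT. Each pulldown replicate pooled about 20 ventricles, and the control was input rather than a streptavidin pulldown from embryos without the tag. Peaks were called on the pooled pulldown, so no value below has a spread between replicates, and no test between libraries could be made.

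The tissue label was set against genes of the cells it could hold, although a peak at a gene is not a measure of its expression. A FOG2 summit was assigned to 11 of 12 ventricular cardiomyocyte genes, with Myl7 the exception, against 13.6% of all protein-coding genes. It was assigned to 3 of 5 epicardial genes, 2 of 5 endothelial genes and 0 of 5 blood genes. Some of these summits were far from the gene, as the strongest at Irx4 (89.1 kb), Tbx18 (84.3 kb), Aldh1a2 (82.4 kb) and Hand2 (75.4 kb). These gene sets were chosen with earlier results of these data known, and no difference between them was tested. Over the whole list the median fold of pulldown over input was 6.39 (quartiles 5.41 and 8.66). The median summit held 12 pulldown fragments, with an exact 95% Poisson interval of 6.20 to 21.0 that covers counting error only.

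FOG proteins bind GATA factors through their zinc fingers and use a short motif at the amino terminus to bind NuRD and a separate motif to bind CtBP. NuRD joins a nucleosome remodelling motor to histone deacetylases on a scaffold of MTA proteins, and it removes acetyl groups from histones at the sites to which it is brought. CtBP proteins are dimers that sense NAD(H) and bring deacetylases, histone methyltransferases and the demethylase KDM1A to short motifs in DNA-binding repressors. In the embryonic mouse heart, CHD4 is known to keep genes of other muscle types silent, and HDAC1 and HDAC2 act redundantly in cardiomyocytes. The results below concern FOG2 on chromatin at the genes of these partners, which is a separate matter from the binding of the proteins to each other.

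Of the 10 corepressor genes, Mta1 had 3 summits, Chd4 had 1 and Ctbp2 had 1, and the other 7 had 0. Of all protein-coding genes, 13.6% had an assigned summit. A summit lay inside the gene body for 3 of the 10 genes, against 8.31% of all protein-coding genes. A summit is more often assigned to a gene with more genome nearer to it than to any other gene, here called its territory. Within the same decile of genes by territory, 6.80% had a summit for Chd4 and Mta1 and 28.7% for Ctbp2. Added over the 10 genes, these shares came to 1.47 genes, and the like shares by gene length came to 2.18 genes. The count of 3 exceeded both sums by fewer than 2 genes. At the mean number of summits per kb of territory, 2.12 summits would fall to the 10 genes, against 5 found, of which 3 were at Mta1. Whether these genes differ from others was not tested.

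**Figure D1:**
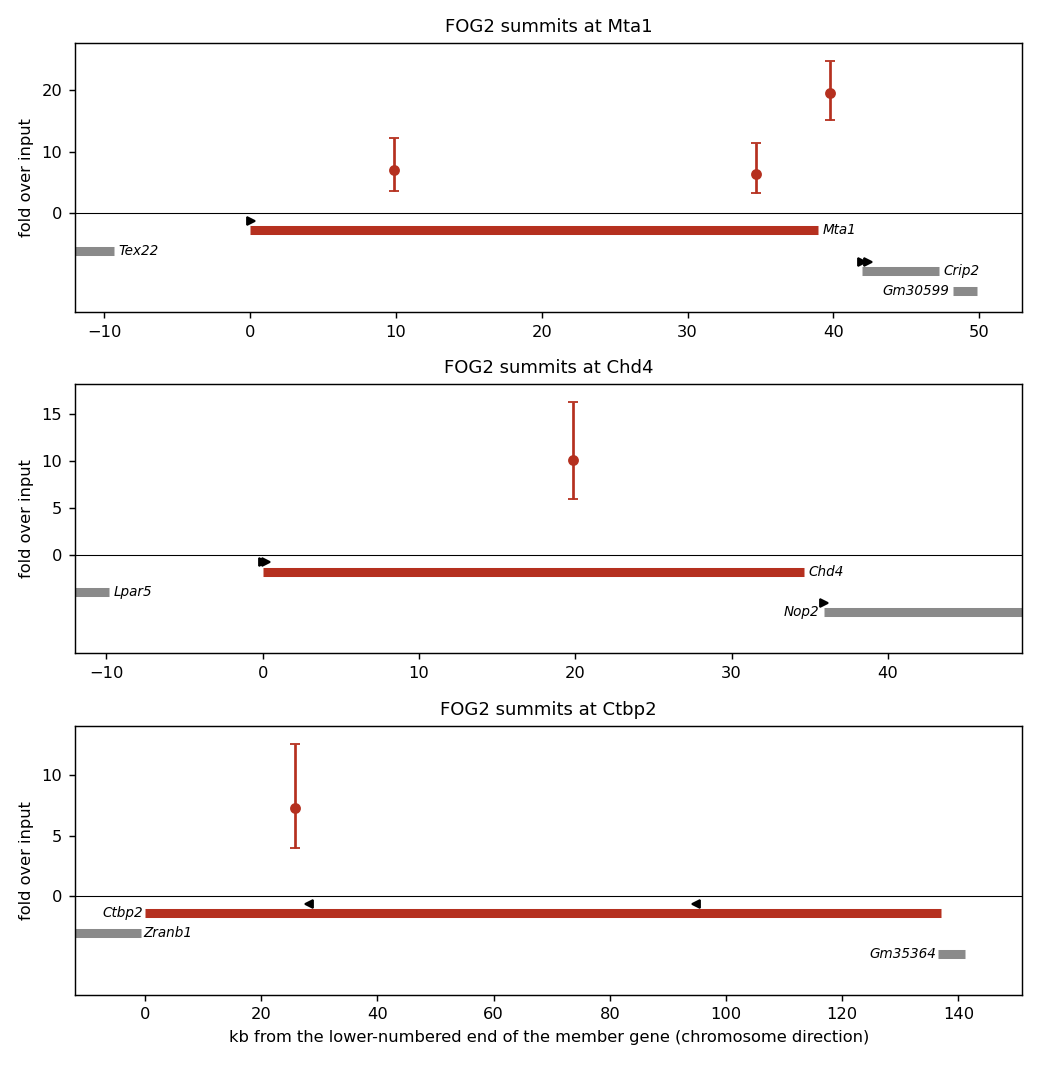
FOG2 summits at Mta1, Chd4 and Ctbp2. The y axis is the authors' fold over input with the counting interval of the fragments (95% Poisson, control held fixed), and the x axis is kb from the lower-numbered end of each gene. Bars are protein-coding gene bodies and arrowheads are RefSeq start sites with their direction. The highest point, 19.5-fold, stands between the end of Mta1 and the start of Crip2.

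Chd4, the ATP-driven remodelling motor of NuRD, held a single summit inside the gene. The peak lay at chr6:125115501-125116000 on mm10, within the gene body at 125095980 to 125130591. It was 500 bp wide, wider than 90.5% of all peaks, and 10.1-fold over input, higher than 83.2% of peaks. It rested on 15 fragments (8.40 to 24.7) over a control level of 0.588 fragments, which is the lowest control level in the list. The summit was 19.7 kb downstream of the nearer of the 2 Chd4 start sites in RefSeq, and 16.0 kb upstream of the start of Nop2, an RNA methyltransferase gene that was the next nearest. The next FOG2 summit on the chromosome was 432 kb away, so the Chd4 summit stood alone in a stretch with 13 other protein-coding genes within 100 kb of Chd4.

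Mta1, 1 of 3 genes for the MTA scaffold that holds NuRD together, carried the strongest signal and the largest number of summits. The peak of highest fold lay 0.779 kb beyond the gene's end, at chr12:113137807-113138272, and was 466 bp wide. It was 19.5-fold over input, which ranked 194 among 6166 peaks, with 66 fragments (51.0 to 84.0), more than at 99.3% of summits. A second peak at chr12:113108022-113108191 was 6.93-fold with 10 fragments (4.80 to 18.4). The remaining peak at chr12:113132855-113133032 was 6.30-fold with 9 fragments (4.12 to 17.1). Both lay inside the gene body, which runs from 113098248 to 113137206, and both were narrow (170 and 178 bp), the first of them at the smallest width in the list. The fragment interval of the strongest Mta1 summit did not overlap that of any other summit at these genes. As fold over input, with the control held fixed, its interval (15.2 to 24.7) did overlap that of the Chd4 summit (5.92 to 16.2). The 2 were therefore not separated by fold. The 3 summits spanned 29.9 kb, with gaps of 24.8 and 5.05 kb.

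Having 3 or more summits was uncommon, at 1.95% of all protein-coding genes. Among the 2557 genes 30 to 50 kb long, a band set after the 39.0 kb length of Mta1 was known, 17 genes (0.665%) had 3 or more. The count at Mta1 was 2 when only the stronger 50% of peaks were kept. The strongest Mta1 peak also differed from the other 4 in its control. The control level there was 2.43 fragments, 4.14 times the lowest level in the list and above the list median of 0.828. The other 4 summits had control levels of 0.588 to 0.641. The part of the raised input in this peak was not tested.

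The position of the strongest peak does not tie it to Mta1 alone. Crip2, the gene of a LIM domain protein found in heart and vessels, begins 2.25 kb beyond that summit and is read in the same direction. The noncoding gene F930026P19Rik lay 0.370 kb from it, nearer than Mta1. With noncoding genes allowed, or with distance taken to start sites, this peak left Mta1, and the highest fold at Mta1 became 6.93. By start sites the peak at 113132855 to 113133032 also went to Crip2 (7.30 kb upstream of it), and the peak 9.83 kb downstream of the Mta1 start stayed with Mta1.

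**Figure D2:**
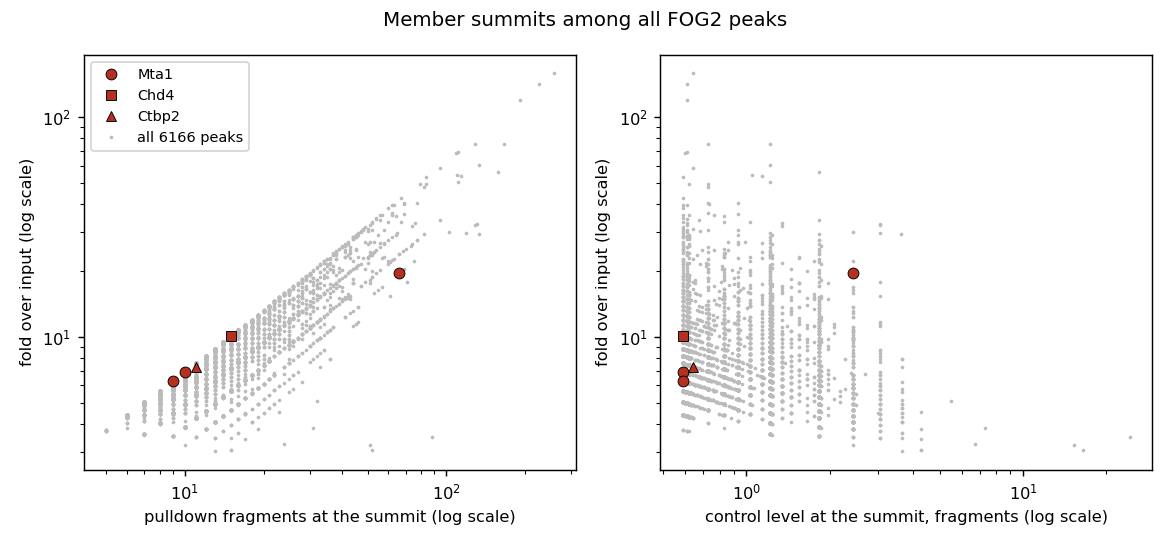
Each point is a FOG2 peak, with fold over input on the y axis and, on the x axes, pulldown fragments at the summit (left) or the control level (right), all on log scales. The strongest Mta1 summit, with 66 fragments and a control level of 2.43, stands apart from the other 4, which have 9 to 15 fragments and control levels near the lowest.

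None of the 5 peaks overlapped a RefSeq promoter window, here 250 bases before to 50 after a start site on GRCm38.p6. The share of all peaks that overlap such a window was not computed, so this is not shown to be particular to these 5. For Mta1, Chd4 and Ctbp2, the window printed is that of the gene's own start site nearest to its summits, and the Crip2 window is shown because its start lay nearer to 2 of the Mta1 summits. In them and in those printed further on, capitals mark any of 6 sets of letters searched on both strands, namely AGATAA and TGATAA for GATA factors, AGGTGTGA for T-box factors, GGAATG for TEAD factors, CCGGAA for ETS factors and CACCTG for E-box factors. A match is a description of the letters and not a binding site. The windows are Mta1 at chr12:113098028-113098327, plus strand, Crip2 at chr12:113139986-113140285, plus strand, Chd4 at chr6:125095913-125096212, plus strand, and the Ctbp2 start inside the gene at chr7:133015198-133015497, minus strand.
Mta1: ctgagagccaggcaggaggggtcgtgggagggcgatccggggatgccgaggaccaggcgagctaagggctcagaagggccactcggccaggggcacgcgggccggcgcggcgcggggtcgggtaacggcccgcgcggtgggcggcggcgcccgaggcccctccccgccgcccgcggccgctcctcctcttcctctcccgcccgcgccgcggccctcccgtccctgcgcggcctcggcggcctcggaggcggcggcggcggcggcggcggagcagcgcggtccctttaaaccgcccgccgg
Crip2: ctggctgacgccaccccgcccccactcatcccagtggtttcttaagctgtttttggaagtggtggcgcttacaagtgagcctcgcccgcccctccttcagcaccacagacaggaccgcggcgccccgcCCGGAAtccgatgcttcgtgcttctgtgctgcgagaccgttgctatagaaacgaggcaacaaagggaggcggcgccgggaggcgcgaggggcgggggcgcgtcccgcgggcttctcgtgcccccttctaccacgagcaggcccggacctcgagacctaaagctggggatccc
Chd4: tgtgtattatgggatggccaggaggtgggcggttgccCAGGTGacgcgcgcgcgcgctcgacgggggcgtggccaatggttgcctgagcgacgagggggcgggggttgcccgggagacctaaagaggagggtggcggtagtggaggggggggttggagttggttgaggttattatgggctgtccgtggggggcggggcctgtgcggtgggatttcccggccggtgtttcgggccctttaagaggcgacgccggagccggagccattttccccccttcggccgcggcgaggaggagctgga
Ctbp2: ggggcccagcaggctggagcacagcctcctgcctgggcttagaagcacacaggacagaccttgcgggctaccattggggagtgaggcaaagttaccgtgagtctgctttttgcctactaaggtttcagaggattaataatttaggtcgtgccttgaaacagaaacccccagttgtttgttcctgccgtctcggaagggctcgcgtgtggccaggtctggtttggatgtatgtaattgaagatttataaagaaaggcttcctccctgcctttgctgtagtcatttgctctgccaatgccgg
The Mta1 window was 81.0% G and C, above 99.1% of 21045 windows of protein-coding genes, and held none of the 6 sets. The printed Chd4 window held CACCTG, on the reverse strand, and no GATA set. The window of the other Chd4 start, 19.9 kb from the summit, held AGATAA on the reverse strand. That window overlaps the printed one, and the CACCTG in both is the same stretch. AGATAA was present in 9.68% of all windows and CACCTG in 19.9%. The printed Crip2 window held CCGGAA, present in 18.9% of all windows. The window of another Crip2 start, not printed, held CACCTG on the reverse strand and no CCGGAA. The printed Ctbp2 window, 52.0% G and C, held none. The Nop2 window, at the start nearest to the Chd4 summit, held CCGGAA once on each strand and is not printed.

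Ctbp2 and Ctbp1, the pair of CtBP genes, differed in the list. Ctbp2 held a summit inside its body (chr7:132986998-133124009), in a peak of 318 bp at chr7:133012750-133013067. It was 7.31-fold over input with 11 fragments (5.49 to 19.7) over a control level of 0.641. By fold it was above 62.5% of peaks, and by fragments above 39.4%, so it was an ordinary peak of this list. The summit lay 2.34 kb downstream of the Ctbp2 start site whose window is printed above, and 69.0 kb downstream of the other start site in the table. This was the shortest distance from any of the 5 summits to a start site of the same gene. Ctbp2 was also the longest of the 10 genes at 137 kb, and 52.1% of genes in the longest decile had a summit.

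Ctbp1 (chr5:33247723-33275004, 27.3 kb) had no summit of its own. The nearest was 51.8 kb from the gene, beyond its 3′ side, at chr5:33195744-33196158, with 8.70-fold and 13 fragments (6.92 to 22.2). It was assigned to Spon2, the gene of a secreted matrix protein, which was 17.6 kb from it, and Slc5a1 was also nearer than Ctbp1. The fragment intervals of this summit and the Ctbp2 summit overlapped, so the strengths were not distinguishable at this depth. The 2 paralogs thus differed in where the nearest peak lay, inside Ctbp2 and outside Ctbp1.

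The other MTA genes, Mta2 and Mta3, were without an assigned summit. Mta3 (chr17:83706163-83823715) was 118 kb long, in the decile of length of which 52.1% had a summit, yet its body held 0. Its nearest summit stood 32.3 kb away at chr17:83855613-83856161, with 14.5-fold and 22 fragments (13.8 to 33.3) over the lowest control level of 0.588. That summit was nearest to Haao, an enzyme gene of tryptophan breakdown, at 6.999 kb. By fold it was above 93.3% of peaks.

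Mta2 (chr19:8941920-8952300) was the shortest of the 10 genes at 10.4 kb, in a decile of length of which 5.04% had a summit. Its nearest summit was 75.8 kb away, inside Ahnak, the gene of a very large scaffold protein, at chr19:9027950-9028222. That peak was 7.05-fold with 17 fragments (9.90 to 27.2). In between stood other genes, since Mta2 had 14 other protein-coding genes within 100 kb, against a median of 4 over all genes. The 3 MTA genes thus differed in this list, with 3 summits at Mta1, a peak of high fold outside Mta3, and a more distant peak of lower fold at Mta2. The fragment intervals of the Mta2 and Mta3 peaks overlapped.

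Hdac1 and Hdac2, the deacetylases of NuRD, had strong peaks within 100 kb that were nearer to other genes. For Hdac1 (chr4:129516104-129542646) the summit was 32.3 kb away at chr4:129574552-129575129, with 13.1-fold and 23 fragments (14.6 to 34.5). It lay 1.27 kb upstream of a start site of Lck, a kinase gene known for its role in T cells, and 4 protein-coding genes were nearer to it than Hdac1. For Hdac2 (chr10:36974297-37001889) there were 2 summits, at 76.9 and 77.8 kb. The nearer peak, chr10:37077882-37079381, was 1500 bp wide, wider than 99.7% of all peaks, and 11.7-fold with 32 fragments (21.9 to 45.2). The farther, chr10:37079489-37079838, was 9.81-fold with 22 fragments (13.8 to 33.3).

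These 2 summits were assigned to Marcks, the gene of a membrane-bound protein kinase C substrate, at 54.5 and 53.6 kb. No other protein-coding gene lay within 100 kb of Hdac2, and 5 summits lay within 500 kb of it, more than for 84.8% of genes. The control levels of the Hdac2 pair were 1.83 and 1.34, above the list median of 0.828, and that of the peak near Hdac1 was 0.828. The part of the raised input was not tested.

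**Figure D3:**
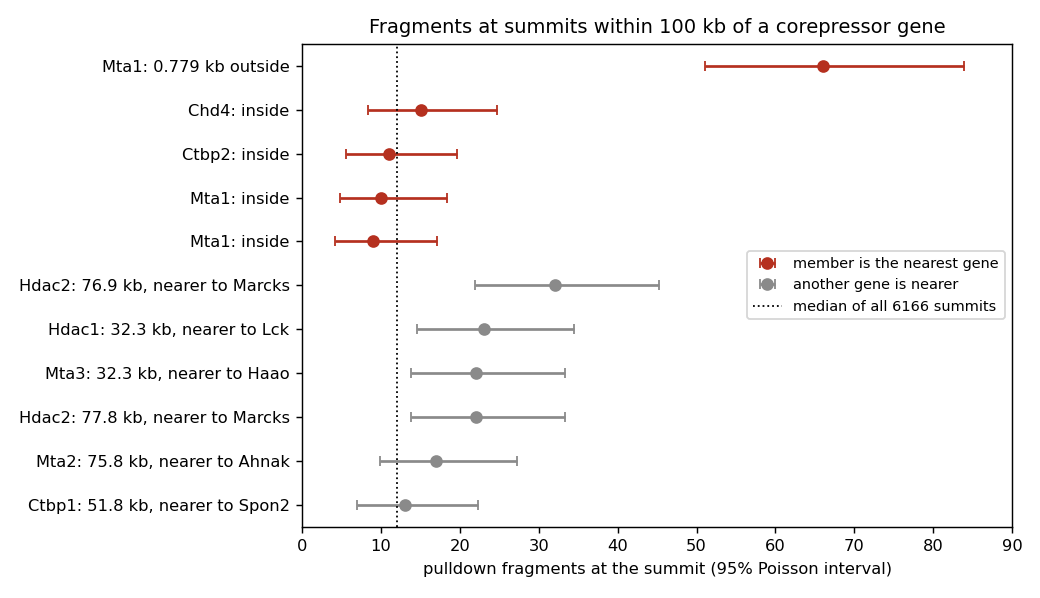
Pulldown fragments with exact 95% Poisson intervals at the 11 summits within 100 kb of a corepressor gene. The 5 upper points are summits nearest to the named gene and the 6 lower points are nearer to another gene. Apart from the Mta1 summit with 66 fragments, the assigned summits hold 9 to 15 fragments and the others 13 to 32.

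Gatad2a and Gatad2b, which link the remodelling and deacetylase parts of NuRD, were the only 2 of the 10 genes with no summit within 100 kb. Gatad2b (chr3:90293181-90363405) was 287 kb from its nearest summit, a 6.22-fold peak with 9 fragments (4.12 to 17.1) inside Ubap2l, a stress granule protein gene. Gatad2a (chr8:69907069-69996402) was 953 kb from its nearest, a 7.02-fold peak with 14 fragments (7.65 to 23.5) assigned to Lpl, the lipoprotein lipase gene. No FOG2 summit lay within 500 kb of Gatad2a, which was true of 22.8% of protein-coding genes. A listed peak held at least 5 fragments at its summit, so weaker occupancy at these genes was not detectable at this depth.

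Letters of the GATA sets stood at start sites of genes with and without a near peak. AGATAA or TGATAA stood in 3 of the 12 windows available for 8 of the 10 genes, namely in 1 window each of Chd4, Gatad2a and Gatad2b, against 15.8% of all windows. No RefSeq window was available here for Hdac1 or Mta3. The windows of the far Gatad2a gene (chr8:69996335-69996634, minus strand) and of the paralogs without an assigned summit, Mta2 (chr19:8941670-8941969, plus strand) and Ctbp1 (chr5:33274955-33275254, minus strand), are shown for comparison with those of the genes with a summit.
Gatad2a: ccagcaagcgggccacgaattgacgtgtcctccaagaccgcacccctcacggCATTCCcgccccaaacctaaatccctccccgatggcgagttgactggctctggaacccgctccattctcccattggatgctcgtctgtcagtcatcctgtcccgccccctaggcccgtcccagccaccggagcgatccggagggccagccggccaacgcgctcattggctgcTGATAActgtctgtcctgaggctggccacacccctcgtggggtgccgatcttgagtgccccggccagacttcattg
Mta2: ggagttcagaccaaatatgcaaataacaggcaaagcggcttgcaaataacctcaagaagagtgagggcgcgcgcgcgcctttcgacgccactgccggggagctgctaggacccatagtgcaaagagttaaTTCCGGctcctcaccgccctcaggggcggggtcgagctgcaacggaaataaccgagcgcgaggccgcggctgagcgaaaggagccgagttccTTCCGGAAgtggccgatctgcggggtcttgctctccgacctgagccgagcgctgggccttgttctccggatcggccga
Ctbp1: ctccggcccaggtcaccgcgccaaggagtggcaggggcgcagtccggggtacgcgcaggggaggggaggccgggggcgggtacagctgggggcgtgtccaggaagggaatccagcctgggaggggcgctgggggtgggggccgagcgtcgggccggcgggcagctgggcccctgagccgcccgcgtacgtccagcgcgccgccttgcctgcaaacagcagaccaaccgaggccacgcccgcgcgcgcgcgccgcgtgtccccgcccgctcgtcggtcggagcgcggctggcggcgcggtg
The printed Gatad2a window held TGATAA, present in 7.51% of all windows, and GGAATG on the reverse strand, present in 13.5%, and its other window held CCGGAA alone. The Mta2 window held CCGGAA at 3 places, of which 1 on each strand overlapped in the longer run of capitals. The Ctbp1 window held none of the 6 sets, as did those of Mta1, Ctbp2 and Hdac2, and AGGTGTGA was in none of the 12.

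The start sites of these genes were mostly rich in CpG. The ratio of observed to expected CpG had a median of 0.855 over the 12 windows, against 0.574 over all windows, and 10 of the 12 were above that median. The 2 below it were both of Ctbp2 (0.399 and 0.210), which were also the poorest in G and C at 52.0% and 43.7%. In all, 9 of the 12 windows exceeded the median G and C content of all windows, 56.7%.

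**Figure D4:**
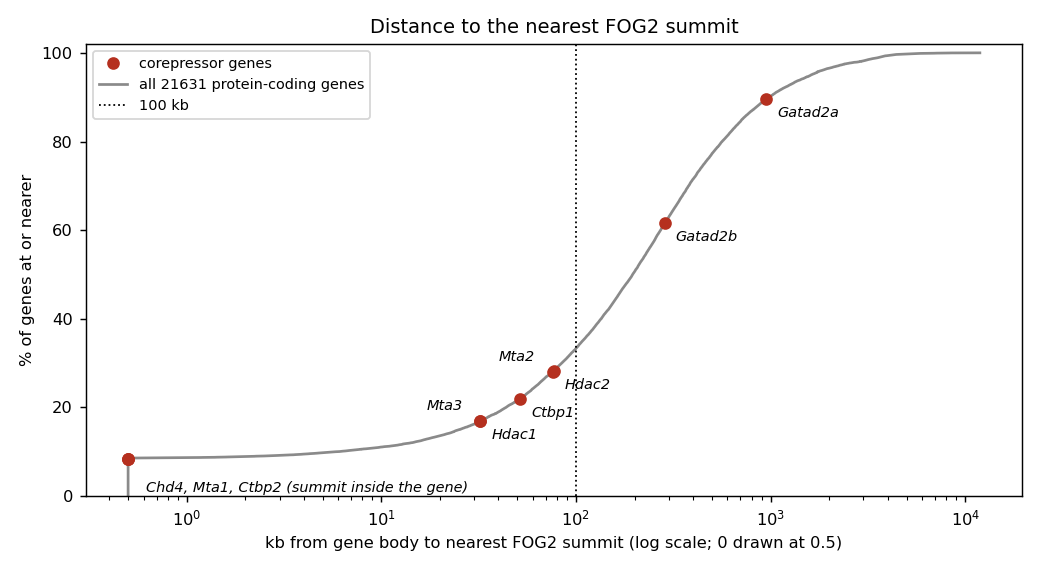
Distance from the gene body to the nearest FOG2 summit (log axis, 0 drawn at 0.5 kb) against the share of all protein-coding genes at that distance or nearer. The 3 genes with a summit inside sit at the left, 5 genes fall between 32.3 and 76.9 kb, and Gatad2b and Gatad2a lie at 287 and 953 kb.

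Any summit within 100 kb, whichever gene was nearer, was found for 8 of the 10 genes, against 33.3% of all protein-coding genes. The corepressor genes were longer, with a median of 36.8 kb against 17.3 kb. Longer genes had an assigned summit more often, but any summit within 100 kb was not compared among genes of like length. The median distance of the corepressor genes to a summit was 42.0 kb, against 196 kb over all protein-coding genes. The difference was not tested. A summit in a gene-rich stretch counts here for many genes at once. Chd4, Mta1, Mta2 and Hdac1 each had 8 to 14 other protein-coding genes within 100 kb, whereas Hdac2, Mta3, Ctbp2 and Ctbp1 had 0 to 3. Gatad2a and Gatad2b, with no summit within 100 kb, had 13 and 11. The part of gene density was not tested.

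Partners of these genes in the same and related complexes had an assigned summit at close to the share of all protein-coding genes, 13.6%. Of 7 other NuRD genes (Mbd2, Mbd3, Rbbp4, Rbbp7, Chd3, Chd5 and Cdk2ap1), 0 had an assigned summit. Any summit within 100 kb was found for 3 of them, against 33.3% of all protein-coding genes. Of 11 genes of CtBP partners, 2 had an assigned summit. Zeb2, a repressor that binds E-boxes, had 2 inside the gene, the stronger at 7.03-fold with 12 fragments (6.20 to 21.0). Rreb1, a zinc finger repressor, had 1 inside at 8.92-fold with 19 fragments (11.4 to 29.7). The demethylase gene Kdm1a and the methyltransferase genes Ehmt1 and Ehmt2 had 0.

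Of 9 genes of other histone deacetylase complexes, 2 had an assigned summit. Among them Hdac8, a deacetylase gene, had 1 inside at 6.30-fold with 9 fragments (4.12 to 17.1). Over these 27 genes together, 4 had an assigned summit (14.8%), close to the 13.6% of all protein-coding genes. Any summit within 100 kb was found for 13 of the 27 (48.1%), above the 33.3% of all protein-coding genes, and this difference was not tested. Zeb2, Rreb1 and Hdac8 each had a lower fold than the strongest at Mta1 or Chd4, although their fragment intervals overlapped that of Chd4. Of the genes of FOG1, FOG2 and their GATA partners, 4 of 5 had a summit, against 13.6% of all protein-coding genes, and they held 18 in all. Zfpm2, which encodes FOG2, had 7 with the strongest at 10.3-fold, near that of Chd4. At 450 kb it was longer than any of the 10 corepressor genes, and these counts were not set against genes of like length. Zfpm1, which encodes FOG1, had 3 with the strongest at 8.21-fold.

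**Figure D5:**
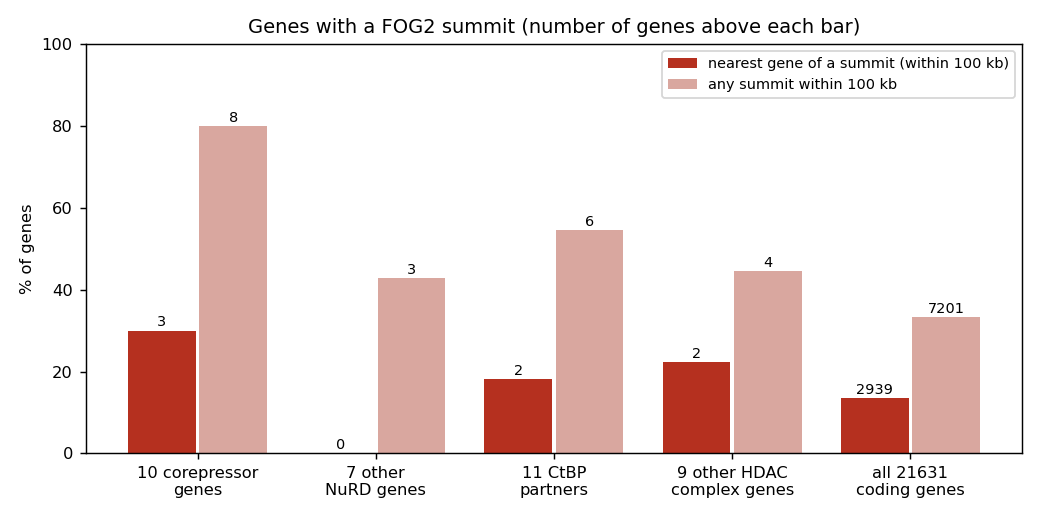
Percent of genes with a FOG2 summit in each list, with the number of genes above each bar. Dark bars count genes that are the nearest to a summit and light bars genes with any summit within 100 kb. The corepressor genes stand at 3 and 8 of 10, and all protein-coding genes at 13.6% and 33.3%.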

How the data were processed

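The values came from a single peak list that the authors deposited for the pooled FOG2 pulldown, named as filtered for blacklisted regions. The submitters' processing notes name Bowtie2 2.3.2, SAMtools 1.5, Picard, MACS2 2.1.1 and mm10. Tool settings were not given in the sources used here. In the deposited list, fold is the ratio of pulldown to control at the summit, and −log10 p and −log10 q are the peak caller's. The score for display that the authors deposited is −log10 q times 10, cut to whole numbers, in each of the 6166 peaks, and was left aside.

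Fragments and control levels were recovered by solving fold and −log10 p for a whole count, with 1 added on both sides of the fold. A whole count matched within 0.001 in every peak, and the code was tested on simulated data. The recovered counts carry exact 95% Poisson intervals, and the depth of each library was not used here. Summits were assigned to the nearest of 21631 RefSeq protein-coding gene bodies (GRCm38.p6) within 100 kb, with a tie counted for each gene. Territory was measured on a 1 kb grid. The gene table gives no exons, so exons and introns were not told apart. Start sites, strands and promoter sequences are RefSeq's and cover 17274 of these genes. All 10 members are named whatever their values, with the genes nearest to their summits and every list gene with a summit except 1, which is not reported here by name. The members and lists were chosen with earlier results of these data known. No test was run, since the list is pooled. Python 3.11.15, SciPy 1.17.1 and pandas 2.3.3 were used. Other peak thresholds, distance limits and assignment rules were tried.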

Additional observations from a re-analysis of the deposited data

How the results depend on the processing

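Chd4, Mta1 and Ctbp2 each kept a summit in all alternatives run but nearest start site, a rule chosen after the data were seen and limited to genes with a start site in the table, under which Chd4's summit went to Nop2 and Ctbp1 gained 1. With every gene within 100 kb counted, 8 members had a summit (33.3% of all protein-coding genes did) and there were 11 summits. Of the 27 other corepressor genes, 13 had at least 1. Within 50 kb, counted the same way, 5 members had a summit, against 21.6% of all protein-coding genes. By nearest start site 3 summits fell to members, and Hdac1 and Mta3, without a start site in the table, could receive none. The count of summits at Mta1 fell from 3 to 2 in the stronger 50% of peaks and with noncoding genes, and to 1 by nearest start site. The highest fold at Mta1 became 6.93 with noncoding genes or start sites, and the distance to Gatad2b became 1369 kb in the stronger 50% of peaks. No paired analysis was possible because the replicates were pooled in 1 list, and for the same reason no replicate could be left out. Counting error at 9 to 15 fragments limits any order among the weaker summits.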
